A study of Ovis aries with 49 samples.

Results

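Messenger RNA of the enzymes that cut the extracellular matrix, and of the proteins that restrain them, was measured in 5 fat depots of young sheep at 7 and 28 days of age. Members were every probe set whose gene symbol begins with MMP, TIMP, ADAM, SERPIN, CTS or LOX, leaving out the mitochondrial TIMM genes, and 53 of the 10273 probe sets met this rule. They comprised 12 MMP, 3 TIMP, 8 ADAM, 10 ADAMTS, 10 CTS, 6 SERPIN and 4 LOX symbols, each with 1 probe set. The rule is by name, so the set also held enzymes that cross-link collagen (LOX, LOXL1 and LOXL2) and a pseudogene (ADAM3A). The set further held LOXL1-AS1, a transcript that encodes no protein, and MMP24OS, a gene on the strand opposite MMP24.

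The study followed the loss of brown fat after birth in lambs of Bluefaced Leicester cross Swaledale ewes that carried twins. At 7 days of age 1 twin was sampled, and its co-twin of the same sex stayed with the mother until day 28. Epicardial fat from around the heart, omental fat from the abdomen, perirenal fat from around the kidney, sternal fat from beneath the breastbone and subcutaneous fat were hybridised to 49 arrays, so that a depot had 5 arrays at an age, or 4 in the case of subcutaneous fat at 7 days. The study also held mothers on an oil supplement, and it examined that diet by array in perirenal and sternal fat at 28 days. The titles of all 49 arrays used here carry the same letter C. The labels do not define it and do not name the diet of these arrays.

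Arrays are named here by letter (A to G at 7 days, H to O at 28 days), 1 letter for each replicate number in the labels, which do not say that a number stands for an animal. Arrays were not independent where depots came from the same animal or where lambs of different ages were co-twins. The p-values measured the spread between these arrays. A smaller piece of tissue was extracted at 7 days than at 28 days, so tissue mass and age cannot be told apart. Whole tissue was extracted, so fewer cells of a type and less RNA per cell cannot be told apart either. The array carries probes for human genes, so a low value does not separate an absent transcript from a probe that pairs poorly with the sheep sequence.

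The matrix of fat is a mesh of collagens, fibronectin and proteoglycans around each adipocyte, and it is rebuilt as fat cells enlarge. Matrix metalloproteinases (MMPs) cut these proteins at the cell surface or after secretion, and tissue inhibitors of metalloproteinases (TIMPs) block them by occupying the active site. ADAMs release the outer part of membrane proteins, ADAMTS enzymes process procollagen and proteoglycans, and most cathepsins work in the lysosome. Serpins are a family of serine protease inhibitors, some of which have lost that activity and serve other functions.

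Values were log2 intensities and ranged from 2.49 to 14.04 over the whole table. A level of 4 was used as a practical limit, since 82.7% of all values and 86.0% of the members' values lay below it. The mean over 49 arrays reached 4 for 7 members. These were TIMP2 at 7.64, the sheddase ADAM10 at 6.35, the membrane-bound MMP16 at 5.64, the matrix-bound inhibitor TIMP3 at 5.50, ADAMTS10 at 4.45, the inhibitor TIMP1 at 4.39 and the secreted MMP28 at 4.31. LOXL1, an enzyme of elastin cross-linking, and SERPINF1, the anti-angiogenic pigment epithelium-derived factor, brought to 9 the number that reached 4 as the mean of at least 1 depot and age. Probes differ in how well they pair, so these levels were not ranked between genes. The other 44 stayed below 4 in every group, and 37 were below 4 on all 49 arrays, among them all 10 cathepsins.

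**Figure D1:**
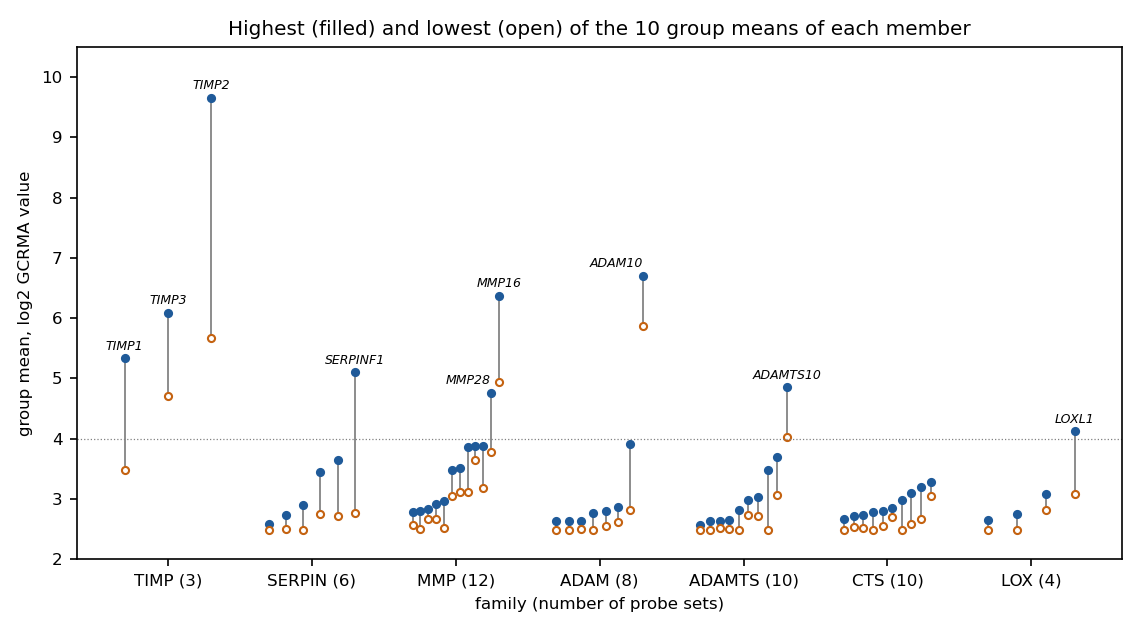
Highest and lowest of the 10 group means (log2 level, 4 or 5 arrays in each group) of each member, with the members grouped by family. TIMP2, ADAM10, MMP16 and TIMP3 were above 4 in all 10 groups, whereas the cathepsins remained below 4 in all 10 groups.

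Low values often coincided exactly. In 33 of the 53 members (62.3%) at least 20 arrays shared 1 value to 6 decimals, against 59.7% of all probe sets. LOXL2, for example, read 2.49 on 34 arrays and LOXL1 read 3.57 on 22, whereas TIMP2 had 49 distinct values. A difference in a low member therefore often rested on a few arrays that rose above a shared value, and its size was compressed. The probe sets of ADAM10, ADAMTS10, CTSB and MMP28 are of the kind whose probes can pair with other sequences, so their identity is less certain.

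Defining markers placed the samples as follows. Of 7 adipocyte markers measured, DGAT2 and CD36 were above 4 on all 49 arrays, whereas FABP4, CIDEC, PPARG and LIPE never were, so the labelled tissue rested on few detected markers. Macrophage and lymphocyte markers had no group mean of 4 or more. The muscle enzyme CKM was above 4 in 9 of the 10 epicardial arrays, in 4 sternal and 5 subcutaneous arrays, and in no omental or perirenal array. Comparisons of sternal and subcutaneous fat were therefore repeated without the 9 arrays of these 2 depots. This left 2 sternal arrays at 28 days and 1 subcutaneous array at 7 days, which was assumed to vary like the other groups. Every epicardial array was kept. Of 7 cardiac muscle markers measured, 6 had a group mean of 4 or more in epicardial fat at both ages, against 1 in omental and perirenal fat. In subcutaneous fat 4 did so at 7 days and 1 at 28 days, and in sternal fat 1 and 3. The mean of these markers per array was 6.72 to 9.05 in epicardial fat at 7 days and 3.11 to 8.77 at 28 days. It reached 6.56 in subcutaneous fat at 7 days and 5.97 in sternal fat at 28 days. The part of heart muscle RNA in the epicardial calls was not tested. In the deposited values the mean over all probe sets of an array was lowest in sternal fat at 28 days (3.25 to 3.30, against up to 3.44 elsewhere).

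Depots differed at 7 days in 7 members by limma's F test at an adjusted p of 0.05 (13.2% of the members, against 8.16% of all probe sets), and at 28 days in 11 members (20.8%, against 20.0%). The 7 were TIMP1, TIMP2, SERPINF1, MMP16, MMP2, ADAMTS19 and CTSG. All but MMP2 and ADAMTS19 were called again at 28 days, together with ADAM10, ADAMTS2, CTSW, MMP19, SERPINH1 and SERPINI1. At 28 days the members' share was near the background, while 5 of the 9 members that reached a group mean of 4 were called, against 6 of the other 44. The same split over all probe sets gave 58.0% and 9.66%, so the members lay near the shares of probe sets of like level.

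TIMP2, which blocks MMPs and also helps membrane-type MMPs to activate pro-MMP2, rose between 7 and 28 days in every depot. In sternal fat it read 4.47, 5.49, 5.79, 6.23 and 6.40 at 7 days, and 7.31, 7.98, 8.42, 8.95 and 9.13 at 28 days. In subcutaneous fat the 4 younger arrays read 7.09, 7.12, 7.50 and 7.82, and the 5 older ones 9.21, 9.47, 9.60, 9.73 and 10.28. Both depots separated completely by age, with a gap of over 0.9 log2 units between the nearest arrays. The rise was 2.68 (SE 0.31, adjusted p = 6.65e-08), or 6.43-fold, in sternal fat and 2.28 (SE 0.33, adjusted p = 2.14e-05), or 4.85-fold, in subcutaneous fat.

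In omental fat TIMP2 read 7.15, 7.27, 8.01, 8.03 and 8.34 at 7 days, against 8.91, 9.00, 9.00, 9.27 and 9.43 at 28 days. Perirenal arrays read 5.18, 5.75, 6.34, 6.66 and 7.03, then 7.10, 7.32, 7.52, 7.61 and 7.68. Epicardial arrays read 6.50, 6.56, 6.96, 7.10 and 7.12, then 7.33, 7.69, 7.85, 8.31 and 8.37. No older array fell within the younger range in any of the 5 depots, although the nearest perirenal arrays were 0.07 apart. The rises were 1.36 (SE 0.31, adjusted p = 0.00186) in omental, 1.25 (SE 0.31, adjusted p = 0.00588) in perirenal and 1.06 (SE 0.31, adjusted p = 0.0331) in epicardial fat. The epicardial call was lost when any 1 of 5 epicardial arrays was left out (D and G at 7 days, I, L and O at 28 days), with an adjusted p of up to 0.105.

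The rise of TIMP2 differed between depots by the F test of the depot and age interaction (adjusted p = 0.0307). It was 1.19 (SE 0.35, adjusted p = 0.0343) larger in sternal fat than the mean rise of the other 4 depots. Without the arrays with CKM above 4 that difference was 1.37, with an adjusted p of 0.110, and the interaction had an adjusted p of 0.0723. The sternal excess was also lost without sternal array F or G at 7 days or M, N or O at 28 days.

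The order of TIMP2 over depots was omental, subcutaneous, epicardial, perirenal and sternal at 7 days, with group means of 7.76, 7.38, 6.85, 6.19 and 5.67. At 28 days it was subcutaneous, omental, sternal, epicardial and perirenal, with means of 9.66, 9.12, 8.36, 7.91 and 7.45. No neighbours in either order differed by the test. Against the mean of the other depots at 7 days, TIMP2 was 1.24 higher in omental fat (SE 0.28, adjusted p = 0.0236) while the sternal difference was -1.37 (SE 0.28, adjusted p = 0.0163). The first call was lost without omental array A, C or G, with an adjusted p of up to 0.0956, and the second without sternal array G (adjusted p = 0.0734). At 28 days it was 1.45 higher in subcutaneous fat (SE 0.21, adjusted p = 3.47e-04), 0.78 higher in omental fat (SE 0.21, adjusted p = 0.0334) and the perirenal difference was -1.32 (SE 0.21, adjusted p = 7.57e-04). The omental difference was 0.71 after quantile normalization (adjusted p = 0.116), and it was lost without omental array I, M, N or O.

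**Figure D2:**
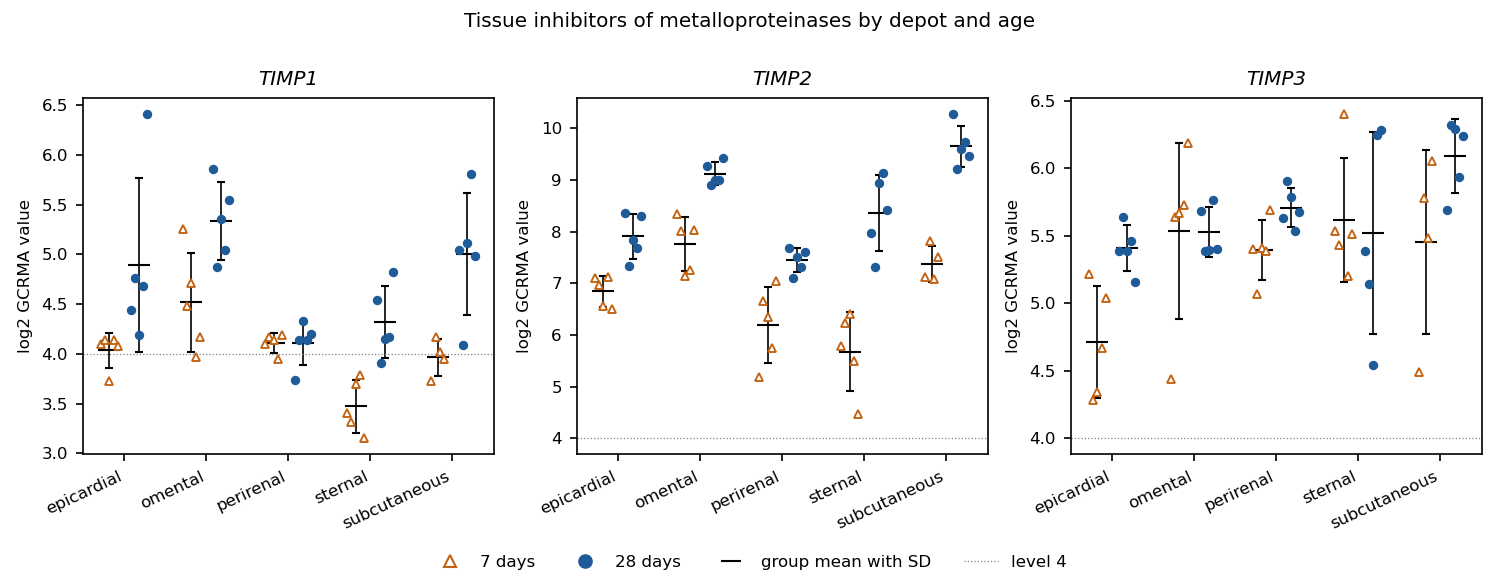
Log2 level of TIMP1, TIMP2 and TIMP3 on each array by depot, at 7 and 28 days (points are arrays, and bars are group means with SD). The TIMP2 arrays of 28 days lay above all those of 7 days in each depot, whereas the TIMP3 arrays of the 2 ages overlapped.

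Fibroblast markers moved beside TIMP2. COL1A1, COL1A2, COL3A1, DCN, LUM (lumican) and FBLN1 are also on the list of matrix proteins given later, so the lists are not separate observations. Of 9 listed, 8 were measured and 6 reached a group mean of 4, while the lumican probe set stayed at the floor. Their mean per array was 5.80 to 6.45 in sternal fat at 7 days and 6.73 to 7.87 at 28 days, 6.66 to 7.26 and 7.10 to 7.69 in subcutaneous fat, and 6.62 to 7.19 and 6.99 to 7.57 in omental fat. In perirenal fat, where TIMP2 was lowest at 28 days, it was 5.64 to 6.58 and 6.00 to 6.59, and in epicardial fat 6.24 to 6.57 and 6.79 to 7.06. Their part in the result was not tested.

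TIMP1, a secreted inhibitor of most MMPs, had its highest group mean at each age in omental fat. The next depot did not differ by limma's test of the pair (perirenal at 7 days, adjusted p = 0.194, and subcutaneous at 28 days, adjusted p = 0.861). No contrast of a depot with the others was called for TIMP1 at 28 days. In omental fat it read 3.97, 4.17, 4.48, 4.71 and 5.26 at 7 days and 4.87, 5.05, 5.35, 5.55 and 5.85 at 28 days. Sternal arrays read 3.15, 3.32, 3.41, 3.70 and 3.79, then 3.91, 4.15, 4.17, 4.55 and 4.82. The sternal ages did not overlap, whereas the omental ages did through array A. At 7 days TIMP1 was 0.62 higher in omental fat than the mean of the other depots (SE 0.14, adjusted p = 0.0227), and the sternal difference was -0.68 (SE 0.14, adjusted p = 0.0163), the same directions as for TIMP2.

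Subcutaneous arrays read 3.73, 3.94, 4.02 and 4.17 for TIMP1 at 7 days and 4.09, 4.98, 5.04, 5.11 and 5.81 at 28 days. Epicardial arrays read 3.72, 4.08, 4.10, 4.14 and 4.14, then 4.19, 4.44, 4.68, 4.76 and 6.41. The last of these, array O, stood far above its group. TIMP1 rose with age by 1.04 in subcutaneous (adjusted p = 0.0135), 0.86 in epicardial (adjusted p = 0.0451), 0.85 in sternal (adjusted p = 0.0468) and 0.82 in omental fat (adjusted p = 0.0308), and the SE was between 0.27 and 0.28. These calls were fragile. Without array O the epicardial rise was 0.48, and quantile normalization removed the epicardial, omental and subcutaneous calls (adjusted p of 0.148, 0.416 and 0.110). Without the arrays with CKM above 4 the sternal and subcutaneous rises had adjusted p-values of 0.264 and 0.700. In perirenal fat the 5 arrays of 7 days read 3.94 to 4.19 and those of 28 days 3.74 to 4.33, and the means differed by 0.00. The differences between depots in the change of TIMP1 did not pass the interaction test (adjusted p = 0.271).

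TIMP3, which binds to the matrix and blocks ADAM and ADAMTS enzymes as well as MMPs, was detected on every array, between 4.28 and 6.40, and passed no test. Its group means at 7 and 28 days were 4.71 and 5.41 in epicardial, 5.53 and 5.53 in omental, 5.39 and 5.71 in perirenal, 5.62 and 5.52 in sternal, and 5.45 and 6.09 in subcutaneous fat. The largest age difference, 0.70 in epicardial fat, had an adjusted p of 0.140. The F tests over depots gave adjusted p-values of 0.236 at 7 days and 0.161 at 28 days.

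SERPINF1 had its lowest group mean in perirenal fat at both ages. The next depot did not differ by limma's test of the pair (sternal at 7 days, adjusted p = 0.628, and epicardial at 28 days, adjusted p = 0.552). At 7 days perirenal arrays read 2.56, 2.57, 2.57, 2.67 and 3.42, sternal arrays 2.67, 2.96, 3.22, 3.25 and 3.29, and subcutaneous arrays 3.42, 4.03, 4.04 and 4.71. At 28 days perirenal arrays read 2.67, 2.67, 2.72, 2.83 and 3.42, sternal arrays 3.30, 3.37, 4.75, 4.99 and 6.10, and subcutaneous arrays 4.43, 5.01, 5.10, 5.21 and 5.78. Epicardial fat spanned 3.29 to 3.82 over both ages, and omental fat 3.31 to 4.97. Perirenal arrays lay between 2.56 and 3.42 over both ages, with 1 array of each age at 3.42, apart from its group. The subcutaneous ages overlapped through array F at 7 days, and the sternal arrays of 28 days were widely spread.

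The perirenal difference from the other depots was -0.86 (SE 0.21, adjusted p = 0.0176) at 7 days and -1.48 (SE 0.30, adjusted p = 0.00547), or 2.79-fold lower, at 28 days. The call at 7 days was lost without perirenal array A or D, with an adjusted p of up to 0.0608. With the replicate number as a block it was lost too, since no member was then called lower in perirenal fat at 7 days. Subcutaneous fat was 1.32 higher at 28 days (SE 0.30, adjusted p = 0.0136), a difference of 1.00 with an adjusted p of 0.222 without the arrays with CKM above 4. It was also lost without array M (adjusted p = 0.0599). With age SERPINF1 rose by 1.42 in sternal fat (SE 0.33, adjusted p = 0.00351), with no overlap between the ages, and by 1.05 in subcutaneous fat (SE 0.35, adjusted p = 0.0474). The fibroblast markers moved beside it too, since sternal arrays M, N and O, which carried its highest values, had marker means of 7.87, 7.85 and 7.52, against 7.19 and 6.73 on I and J. Their part in the result was not tested. The subcutaneous rise was 0.13 without the arrays with CKM above 4 and did not pass after quantile normalization (0.82, adjusted p = 0.207). The difference between depots in the change was not called (adjusted p = 0.107).

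SERPINH1, the collagen chaperone HSP47 of the endoplasmic reticulum, stood out in omental fat. It read 2.84 on 4 omental arrays and 3.15 on the other at 7 days, and 3.18, 3.47, 3.50, 3.51 and 3.54 at 28 days. The ages did not overlap, though every value was below 4. The rise was 0.54 (SE 0.11, adjusted p = 4.96e-04), it was 0.44 larger than in the other depots (adjusted p = 0.0298), and at 28 days omental fat was 0.48 higher than the rest (SE 0.09, adjusted p = 0.00308). After quantile normalization the rise was 0.33 (adjusted p = 0.0636) and the excess 0.28 (adjusted p = 0.317), while the depot difference still passed.

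SERPINI1, the neural inhibitor neuroserpin, read 3.12, 3.32, 3.80, 3.87 and 4.12 in epicardial fat at 28 days, 0.57 above the other depots (adjusted p = 0.0462, 0.0662 after quantile normalization and 0.0998 without the arrays with CKM above 4). It rose with age by 0.59 in epicardial fat (adjusted p = 0.0239) and by 0.63 in omental fat (adjusted p = 0.00687). SERPINB3, an inhibitor of cathepsins, differed by 0.08 in sternal fat at 28 days (adjusted p = 0.0319), near the floor of the scale. SERPINA10 and SERPINB13 passed no test.

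**Figure D3:**
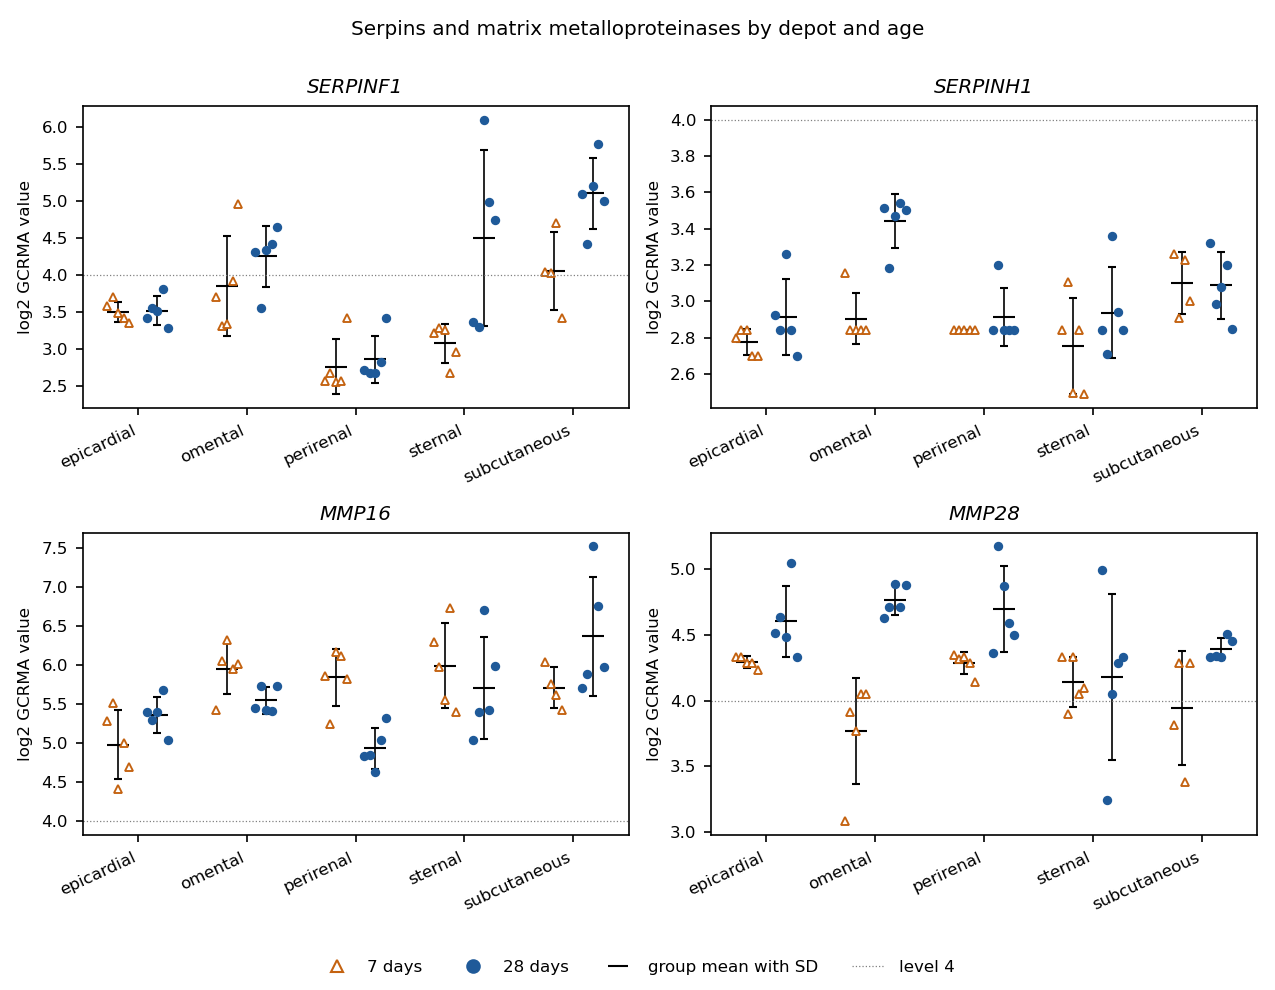
Log2 level on each array of the serpins and MMPs with the main calls, by depot at 7 and 28 days (points are arrays, and bars are group means with SD). SERPINF1 had its lowest group mean in perirenal fat at both ages, and the omental arrays of SERPINH1 and MMP28 separated by age.

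MMP16, a membrane-type metalloproteinase, was above 4 on every array. At 7 days it read 4.42, 4.70, 5.01, 5.29 and 5.51 in epicardial fat and between 5.24 and 6.73 on the 19 arrays of the other depots. Epicardial fat was thus the lowest depot, with 2 of its arrays inside the range of the others, and the difference from their mean was -0.89 (SE 0.20, adjusted p = 0.00841). At 28 days subcutaneous arrays read 5.70, 5.89, 5.98, 6.76 and 7.52, and perirenal arrays 4.63, 4.84, 4.85, 5.04 and 5.32. Subcutaneous fat was then 0.98 above the other depots (SE 0.23, adjusted p = 0.0165), a difference of 0.43 with an adjusted p of 0.527 without the arrays with CKM above 4. The call was also lost without subcutaneous array J or M, with an adjusted p of up to 0.0926.

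In perirenal fat MMP16 read 5.24, 5.82, 5.86, 6.12 and 6.17 at 7 days and fell by 0.91 by day 28 (SE 0.27, adjusted p = 0.0248). The ages overlapped between the lowest younger array, B, and the highest older array, N. The fall did not pass without perirenal array C or D at 7 days or I, J or K at 28 days, with an adjusted p of up to 0.0727. Its change differed between depots by the interaction test (adjusted p = 0.0292, and 0.104 without the arrays with CKM above 4), and the perirenal minus the subcutaneous change was -1.57 (adjusted p = 0.0282), the one member called in that pair, where 2.03% of all probe sets were. Among the 9 members with a group mean of 4 or more, this was the only fall with age that passed the test.

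MMP28, or epilysin, rose in omental fat by 0.99 (SE 0.19, adjusted p = 2.49e-04), from 3.08, 3.77, 3.92, 4.05 and 4.05 to 4.62, 4.71, 4.71, 4.88 and 4.88. The ages were 0.57 apart at their nearest arrays. After quantile normalization the rise was 0.63 (adjusted p = 0.0519). The arrays of the 2 ages were also separate in epicardial, perirenal and subcutaneous fat, with higher values at 28 days, but differences of 0.31, 0.41 and 0.45 did not pass the test there (adjusted p of 0.464, 0.214 and 0.175). In sternal fat the difference was 0.04.

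MMP2, the gelatinase that TIMP2 helps to activate, was low, between 2.76 and 4.32. In sternal fat it read 2.76, 3.16, 3.16, 3.31 and 3.50 at 7 days and 3.50 on 4 arrays and 4.29 on array N at 28 days. The rise of 0.48 (SE 0.13, adjusted p = 0.0163) thus compared values mostly at or below a shared value. It was lost without array E at 7 days or N at 28 days. MMP14, the main membrane activator of pro-MMP2, rose by 0.32 in omental fat (adjusted p = 0.0234) and by 0.35 in subcutaneous fat (adjusted p = 0.0268), and neither call held after quantile normalization. MMP19 was 0.47 higher in epicardial fat at 28 days (adjusted p = 0.0263, 0.109 after quantile normalization and 0.0837 without the arrays with CKM above 4), and its sternal difference was -0.39 (adjusted p = 0.0216; -0.16 after quantile normalization, adjusted p = 0.497). MMP15 was 0.30 higher in perirenal fat at 7 days (adjusted p = 0.0254, and 0.310 after quantile normalization). MMP21 fell by 0.41 in subcutaneous fat (adjusted p = 0.0164), a call that rested on array F at 7 days (adjusted p = 0.237 without it). The other MMP members, MMP11, MMP17, MMP24, MMP25 and MMP24OS, passed no test of depot or age.

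Of the 8 ADAM members, ADAM10, the chief sheddase of Notch and many other membrane proteins, was above 5 on every array. It read 5.29, 5.56, 5.96, 6.19 and 6.35 in sternal fat at 28 days and between 6.13 and 7.19 on the 20 other arrays of that age. The sternal difference was -0.68 (SE 0.15, adjusted p = 0.00206), in a comparison where 18.4% of all probe sets were called lower. After quantile normalization the difference was -0.31, with an adjusted p of 0.152. ADAM11, which has no protease activity, rose with age in 4 depots. The rise was 0.89 in omental (adjusted p = 0.00484), 0.89 in subcutaneous (adjusted p = 0.0121), 0.74 in perirenal (adjusted p = 0.0265) and 0.72 in sternal fat (adjusted p = 0.0444), and the epicardial difference was 0.25. Its values lay between 2.61 and 4.48, the perirenal and subcutaneous ages did not overlap, and after quantile normalization only the sternal call of the 4 remained (0.84, adjusted p = 0.0148). Without the arrays with CKM above 4 the sternal and subcutaneous rises had adjusted p-values of 0.184 and 0.0762. ADAM12, ADAM17, ADAM19, ADAM28 and ADAM3A passed no test. ADAM23, also without protease activity, passed only between epicardial and sternal fat at 28 days, with a difference of 0.25 (adjusted p = 0.0296) in a pair where 12.2% of all probe sets were called.

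ADAMTS19 was detectable in part of 1 depot at 7 days. Epicardial arrays read 2.49, 2.89, 3.04, 3.82 and 4.03, while the 19 arrays of the other depots were at 2.64 or less. Epicardial fat was 0.76 higher (SE 0.14, adjusted p = 0.00279). It rose in subcutaneous fat from 2.49 on all 4 arrays to 2.50, 3.15, 3.45, 3.68 and 4.62 (difference 0.99, adjusted p = 0.0242, and 0.563 without the arrays with CKM above 4). ADAMTS2, which removes the N-propeptide of fibrillar procollagens, was 0.42 higher in subcutaneous fat at 28 days (adjusted p = 0.0360). ADAMTS13, which cuts von Willebrand factor, rose by 0.32 in omental fat (adjusted p = 0.00239) at levels below 4. ADAMTS10, which associates with fibrillin microfibrils, differed by -0.43 in sternal fat at 28 days (adjusted p = 0.0423), but by -0.05 after quantile normalization (adjusted p = 0.846). ADAMTS1, ADAMTS6, ADAMTS8, ADAMTS12, ADAMTS14 and ADAMTS18 lay between 2.49 and 3.72 and passed no test.

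The cathepsins moved within the low range. CTSG, the neutrophil serine protease cathepsin G, read 2.89, 2.89, 2.89, 3.09 and 3.41 in sternal fat at 7 days and 2.58, 2.58, 2.60, 2.76 and 2.80 at 28 days. The ages did not overlap, and the values fell by 0.37 (SE 0.09, adjusted p = 0.00612). The sternal change minus the mean change of the other depots was -0.34 (adjusted p = 0.0364), or -0.31 after quantile normalization (adjusted p = 0.106) and -0.28 without the arrays with CKM above 4 (adjusted p = 0.237). At 28 days all 5 sternal arrays of CTSG lay below every other array, as did 2.14% of all probe sets, and the difference was -0.26 (adjusted p = 0.00144). CTSW, a cathepsin of cytotoxic lymphocytes, rose by 0.36 in epicardial fat (adjusted p = 0.00358) and by 0.26 in subcutaneous fat (adjusted p = 0.0452). It was also 0.18 higher in perirenal fat at 7 days (adjusted p = 0.0325) and 0.29 higher in epicardial fat at 28 days (adjusted p = 0.0275, 0.0506 after quantile normalization and 0.0811 without the arrays with CKM above 4), with a sternal difference of -0.21 at 28 days (adjusted p = 0.0482). CTSC, which activates granule serine proteases, rose by 0.42 in omental fat (adjusted p = 0.0348), and the lysosomal CTSL by 0.16 in subcutaneous fat (adjusted p = 0.0388). CTSA, CTSB, CTSH, CTSS, CTSV and CTSZ passed no test.

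Among the cross-linking enzymes, LOXL1 rose in subcutaneous fat. It read 2.85, 3.03, 3.57 and 3.57 at 7 days and 3.57, 3.64, 4.29, 4.49 and 4.61 at 28 days, a rise of 0.87 (SE 0.21, adjusted p = 0.00544). The highest younger arrays were at, or within 0.01 of, the value that 22 arrays shared. After quantile normalization the adjusted p was 0.0662, and without the arrays with CKM above 4 it was 0.0957. LOX, which cross-links collagen and elastin, lay between 2.76 and 3.46, and LOXL2 between 2.49 and 3.14, and both passed no test. LOXL1-AS1, transcribed opposite LOXL1, fell in omental fat by 0.27 (SE 0.06, adjusted p = 8.98e-04), from 2.49, 2.67, 2.79, 2.80 and 3.03 to 2.49 on all 5 arrays.

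Over all members and depots the age comparisons made 33 calls in 19 members, of which 29 were rises. Epicardial fat had 4 rises and no fall (7.55% of the members, against 5.84% of all probe sets), omental fat 9 rises and 1 fall (18.9%, against 14.6%), and perirenal fat 2 rises and 1 fall (5.66%, against 9.32%). Sternal fat had 5 rises and 1 fall (11.3%, against 6.37%), and subcutaneous fat 9 rises and 1 fall (18.9%, against 9.25%). Over all probe sets the shares of rises and of falls were 4.21% and 1.63% in epicardial, 13.5% and 1.03% in omental, 6.23% and 3.09% in perirenal, 2.47% and 3.89% in sternal, and 7.68% and 1.57% in subcutaneous fat. TIMP1 and TIMP2 made 9 of the 33 calls. The omental and subcutaneous counts were each 3 after quantile normalization. That scaling also turned the omental calls over all probe sets from 1391 rises and 106 falls to 394 rises and 374 falls.

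The median age difference of the 53 members was 0.04 in epicardial, 0.08 in omental, 0.01 in perirenal, 0.04 in sternal and 0.10 in subcutaneous fat, against 0.02, 0.06, 0.01, 0.00 and 0.05 over all probe sets. Most members thus moved little. Among members whose ages did not overlap, 6 were higher at 28 days in epicardial, 7 in omental, 3 in perirenal, 4 in sternal and 7 in subcutaneous fat. Counting both directions, these were 6 members (4.60% of all probe sets), 8 (11.6%), 5 (8.86%), 5 (3.53%) and 7 (8.05%). The change with age differed between depots in 3 members, TIMP2, MMP16 and CTSG (5.66%, against 9.17% of all probe sets). Against the mean change of the other depots, 2 members were called in omental (3.97% of all probe sets), 2 in sternal (5.52%), and 0 in epicardial (0.146%), perirenal (1.27%) and subcutaneous fat (1.65%).

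**Figure D4:**
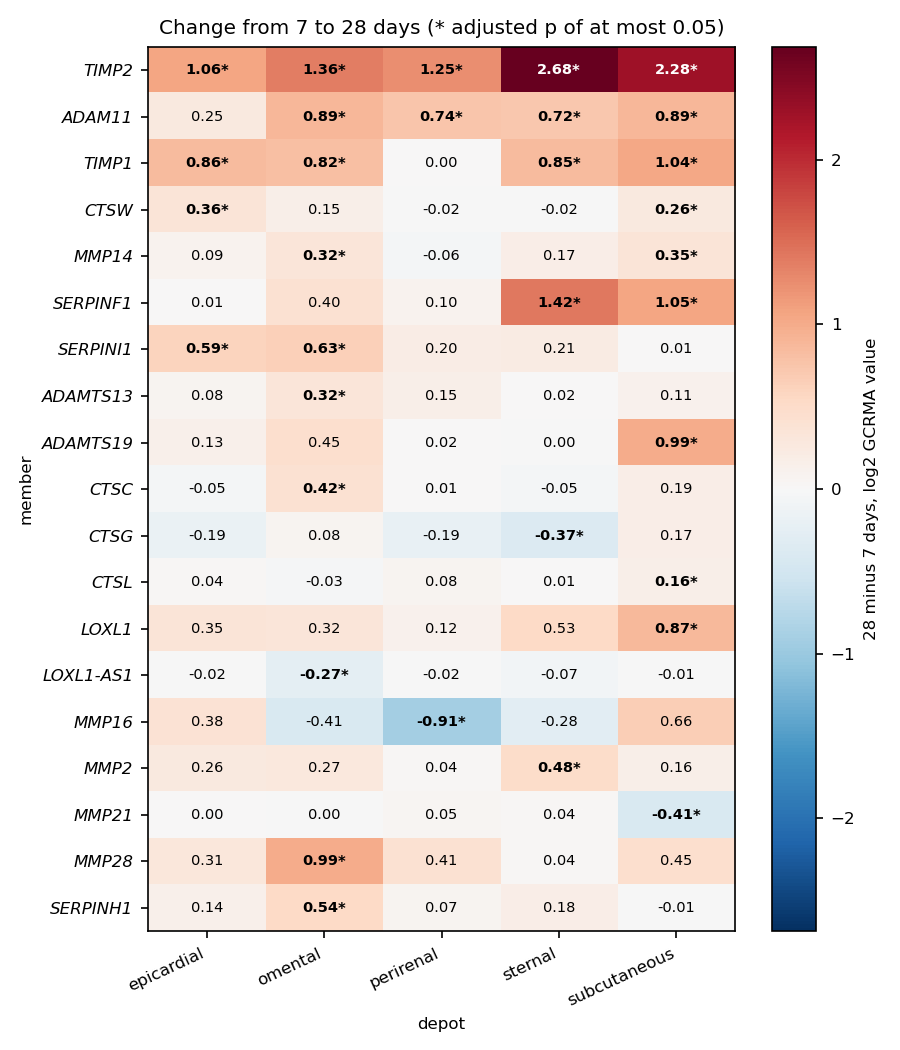
Log2 difference between 28 and 7 days in each depot for the members called in at least 1 depot, from limma (positive, higher at 28 days). TIMP2 rose in all 5 depots, with the largest difference (2.68) in sternal fat, and MMP16 fell in perirenal fat.

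Contrasts of 1 depot with the other 4 called few members. At 7 days 2 passed in epicardial (4.07% of all probe sets), 2 in omental (1.54%), 3 in perirenal (5.11%), 2 in sternal (1.20%) and 0 in subcutaneous fat (1.53%). Both sternal calls were TIMP1 and TIMP2, lower (0.925% of all probe sets), and both omental calls were TIMP1 and TIMP2, higher (0.565%). With the replicate number as a block none of these 4 calls passed (adjusted p from 0.0526 to 0.0897). At 28 days 3 passed in epicardial (3.24%), 2 in omental (5.12%), 2 in perirenal (3.36%), 6 in sternal (20.1%) and 4 in subcutaneous fat (3.04%). The 4 subcutaneous members, TIMP2, SERPINF1, MMP16 and ADAMTS2, were all higher (2.58% of all probe sets), and both perirenal members, TIMP2 and SERPINF1, were lower (0.487%). In sternal fat 5 of the 6 were lower, as were 1891 of the 2061 probe sets called there. After quantile normalization the sternal calls over all probe sets were 605 higher and 357 lower, and 3 members were called, 2 of them higher.

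Calls that passed whichever array was left out were those of TIMP2 with age in omental, perirenal, sternal and subcutaneous fat and for subcutaneous and perirenal fat at 28 days, SERPINF1 with age in sternal fat and for perirenal fat at 28 days, and SERPINH1 and MMP28 with age in omental fat. So were those of SERPINH1 for omental fat at 28 days, LOXL1 with age in subcutaneous fat, ADAM11, ADAMTS13 and LOXL1-AS1 with age in omental fat, ADAM10 for sternal fat at 28 days, MMP16 and ADAMTS19 for epicardial fat at 7 days, CTSW with age in epicardial fat, and CTSG in sternal fat with age and at 28 days. Among the others, the depot calls of TIMP1 at 7 days were lost without omental array A or D (adjusted p of up to 0.0874) and without sternal array G (adjusted p = 0.0743). Its subcutaneous rise was lost without array M (adjusted p = 0.0587), its omental rise without any 1 of 6 omental arrays, and its sternal rise in 30 of the 49 refits. The subcutaneous rise of SERPINF1 was lost in 35 of 49. The rise of ADAM11 was lost without subcutaneous array H (adjusted p = 0.0559) and without any 1 of 6 perirenal or 8 sternal arrays. The subcutaneous rise of ADAMTS19 was lost without array A, G or I, the ADAMTS2 call without I, M or N, and the omental rise of SERPINI1 without array N (adjusted p = 0.0501). Calls of MMP15 (D or G), MMP19 in epicardial fat (L or N), MMP19 in sternal fat (N or O) and SERPINB3 (M or N) were each lost without 1 of the named arrays of their depot, and those of MMP14, CTSC, CTSL and CTSW in subcutaneous fat without any 1 of 3 to 7 arrays. The perirenal call of CTSW at 7 days was lost without array B or D, its epicardial call at 28 days without I, J or O, and its sternal call in 19 of 25 refits, and the sternal ADAMTS10 and epicardial SERPINI1 calls at 28 days were lost in 18 of 25 each. The epicardial rise of SERPINI1 was lost without any 1 of 6 arrays.

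Of the F tests over depots, those of TIMP2 and SERPINF1 at both ages, TIMP1 at 7 days and ADAM10, CTSG, MMP16 and SERPINH1 at 28 days passed in every such refit. Those of MMP16 and MMP2 at 7 days were lost in 15 of 24 each and that of CTSG in 10 of 24, and TIMP1 at 28 days was lost in 10 of 25. ADAMTS19 was lost without epicardial array A or C at 7 days and ADAMTS2 without subcutaneous array M at 28 days, and CTSW, MMP19 and SERPINI1 in 6, 4 and 8 of 25 refits. Of the interaction tests, CTSG passed throughout, MMP16 was lost without subcutaneous array G at 7 days or perirenal array K at 28 days, and TIMP2 without sternal array F, G, M or N. The omental excess of SERPINH1 was lost without any 1 of 8 omental arrays, that of LOXL1-AS1 without omental array A or D at 7 days, and the sternal difference of CTSG without D, E, I, M or N.

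Genes that work with these enzymes were followed as lists. The alternative fits were read for members only, so the calls of listed genes were not checked by them. Over all probe sets quantile normalization changed the rises from 1391 to 394 in omental and from 789 to 249 in subcutaneous fat. In sternal fat they went from 254 to 342. Of 10 measured genes of the plasminogen system, which activates several MMPs, LRP1, the receptor that clears protease and inhibitor complexes, rose by 1.01 in omental fat (adjusted p = 3.77e-04) and by 1.10 in subcutaneous fat (adjusted p = 6.19e-04). ANXA2, a plasminogen receptor, rose by 0.93 in perirenal (adjusted p = 0.00184) and 0.96 in sternal fat (adjusted p = 0.00168). None of 13 other protease inhibitors passed a contrast of depot or age. Among 25 other proteases, 3 rose with age in omental fat (where 13.5% of all probe sets did) and 5 in subcutaneous fat (where 7.68% did), including FURIN, the convertase that activates membrane-type MMPs (0.57, adjusted p = 0.0131), and the surface peptidase DPP4 (0.79, adjusted p = 0.0307).

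Of 10 genes for collagen folding, PPIB, a proline isomerase that acts with SERPINH1, was 0.30 higher in omental fat at 28 days (adjusted p = 0.0288). PLOD2, a collagen lysine hydroxylase, fell with age by 0.43 in sternal (adjusted p = 0.00203) and 0.34 in perirenal fat (adjusted p = 0.0151). Many of the substrates also differed, and their list shares COL1A1, COL3A1 and other genes with the fibroblast markers. Of 36 measured matrix proteins, 11 were lower in perirenal fat (0.487% of all probe sets) and 8 higher in subcutaneous fat at 28 days (2.58%), and 10 rose with age in sternal fat (2.47%). The sternal rise was 3.85 for the collagen I chain COL1A1 (SE 0.44, adjusted p = 3.72e-08) and 1.03 for the collagen III chain COL3A1 (SE 0.21, adjusted p = 7.97e-04), and COL3A1 rose in all 5 depots. In perirenal fat at 28 days the difference from the other depots was -2.04 for fibronectin, FN1 (SE 0.27, adjusted p = 1.08e-04), and -2.87 for COL1A1 (SE 0.39, adjusted p = 1.56e-04), in the same depot where TIMP2 and SERPINF1 were lowest.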

How the data were processed

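RNA of 49 sheep fat samples was hybridised by the authors to a human 3' expression array, and the deposited values are log2 intensities, background-corrected, normalized and summarised by GCRMA, 1 per probe set (affy is also named in the submitters' processing notes, without versions). The table held 10273 probe sets, of which 9780 had 1 gene symbol, 6 several and 487 none. GCRMA pulls low signals to shared values, so differences below about 4 are compressed.

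The values were used as deposited. Samples were grouped by depot and age from the labels. Linear models with empirical Bayes moderation were fitted with limma 3.58.1 (R 4.3.3) across all probe sets, in 24 arrays at 7 days, 25 at 28 days and all 49 for age. Comparisons were an F test over depots at each age, 1 depot minus the average of the 4 remaining ones, single pairs, 28 minus 7 days within a depot, and the difference of those changes between depots. Benjamini-Hochberg adjustment ran over all 10273 probe sets in each comparison, and calls were made at an adjusted p of at most 0.05. The scripts were tested on simulated data. The precision is limited by 4 or 5 arrays a group.

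Named genes were the 12 members with the smallest F-test p at each age, up to 5 called members with the largest difference in each depot or age comparison, up to 6 interaction calls, the highest member of each family, every TIMP, LOX and LOXL, and up to 3 called genes of each other list. Other members were named to account for all 53, after their values were seen. The members and lists were chosen with earlier results of these data known.

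Alternatives were quantile normalization, a filter that kept mean levels of 4 or more, limma with trend and robust settings, the replicate number as a fixed or random block, and leaving out each array. A fit without those arrays of sternal and subcutaneous fat in which CKM exceeded 4 was added after seeing the data. Member symbols were matched to sheep RefSeq gene names for 47 of the 53. Those without a match were ADAM3A, CTSG, CTSV, LOXL1-AS1, MMP21 and SERPINB3, so the sheep transcript they measured is less certain. No sequences are shown, and human probe sequences were not used here.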

Additional observations from a re-analysis of the deposited data

Results flagged for a closer look

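Among the 90 groups of the 9 members with a group mean of 4 or more, 8 had a single array apart by Dixon's criterion. Its usual rate of about 1 group in 20 is for independent values without ties. These groups share arrays and hold tied values, so that rate cannot be set beside the count. For the inhibitors, TIMP3 read 6.40 on sternal array E at 7 days (others 5.20 to 5.54), and TIMP1 read 6.41 on epicardial array O at 28 days (others 4.19 to 4.76) and 3.72 on epicardial array D at 7 days (others 4.08 to 4.14). SERPINF1 read 3.42 on perirenal array N at 28 days (others 2.67 to 2.83) and 3.42 on perirenal array G at 7 days (others 2.56 to 2.67). LOXL1 read 4.13 on omental array A at 7 days and 3.76 on sternal array N at 28 days, each against 3.57 on the other 4 arrays. MMP28 read 3.08 on omental array A at 7 days (others 3.77 to 4.05).

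The change between 7 and 28 days differed between depots by limma's interaction F test for TIMP2 (adjusted p = 0.0307), CTSG (adjusted p = 0.0168) and MMP16 (adjusted p = 0.0292). Against the mean change of the other 4 depots, the omental change was 0.44 larger for SERPINH1 (adjusted p = 0.0298) and the omental difference for LOXL1-AS1 was -0.24 (adjusted p = 0.0248). The sternal difference was 1.19 for TIMP2 (adjusted p = 0.0343) and -0.34 for CTSG (adjusted p = 0.0364).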

How the results depend on the processing

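No call of a single member turned in direction, but the balance of calls did. In sternal fat at 28 days 1 member was higher and 5 lower, against 2 higher and 1 lower after quantile normalization, and in epicardial fat 3 were higher, against 1 lower without the arrays with CKM above 4. After quantile normalization the F test over depots at 28 days gave 4 members (1310 of 10273 probe sets). Perirenal fat at 7 days gave 1 (274), and at 28 days epicardial fat gave 0 (316), omental 1 (299) and sternal 3 (962). For age the counts were 2 (508), 3 (768) and 3 (493) in epicardial, omental and subcutaneous fat. A filter that kept probe sets of mean 4 or more removed most members. The F tests then gave 3 members at 7 days (689 of 1700 probe sets) and 6 at 28 days (1225 of 1829). Perirenal fat at 7 days gave 0 (279), and at 28 days epicardial fat gave 1 (267), perirenal 4 (234) and sternal 3 (1122). For age the counts were 4 (696 of 1752), 2 (619) and 2 (559) in omental, sternal and subcutaneous fat. Without the arrays with CKM above 4, fewer arrays remained and the counts were 2 in subcutaneous fat at 7 days, 7 in the F test, 1 in epicardial and 2 in subcutaneous fat at 28 days, and 3 and 4 for age in sternal and subcutaneous fat. Over all probe sets the F test at 28 days called 1165 without those arrays, against 2051 with them. The random block and the trend and robust settings moved no count by over 1.5 times. Over 84 calls of single members, 43 passed after quantile normalization, 44 without the CKM arrays, 84 with the random block and 80 with trend and robust settings. Except for what their construction shows, the cause was not tested.

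With the replicate number as a block the F test at 7 days gave 3 members (678 of 10273 probe sets). At that age omental, perirenal and sternal fat gave 0 (150), 1 (430) and 0 (64). At 28 days epicardial and sternal fat gave 1 (219) and 3 (1750), and 27 of 44 member calls passed. Same-number arrays of different depots deviated together (r over 0.1) in 6 of 33 pairs at 7 days and 12 of 39 at 28 days. Different-number arrays did so in 15 of 197 and 12 of 211 pairs. The median r was 0.05 and 0.06 for same-number pairs, against -0.01 at both ages for the others. The random block estimated a correlation within a number of 0.00126 at 7 days and 0.0102 at 28 days. Same-number arrays thus deviated together more often, and the main tests did not use the number. No number occurs at both ages, so age has no such fit. By the design the older lambs were co-twins of the younger ones. The labels do not pair them, so the age and interaction tests treated the ages as independent groups.

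Leaving out 1 array at a time, counts ran from 4 to 7 in the F test at 7 days, and from 0 to 3 in omental, 0 to 4 in perirenal, 0 to 3 in sternal and 0 to 1 in subcutaneous fat at that age. At 28 days they ran from 1 to 4 in epicardial, 1 to 3 in omental, 2 to 4 in perirenal, 2 to 6 in sternal and 1 to 5 in subcutaneous fat. For age they ran from 1 to 5 in epicardial, 1 to 4 in perirenal, 3 to 6 in sternal and 5 to 11 in subcutaneous fat, and the interaction from 2 to 5. Of 3044 refitted member calls, 2714 passed. Signals near the floor limit what the 44 low members can show.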
